A study of Danio rerio with 6 samples.

Results

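Conjugation enzymes of 3 families were examined: the UDP-glucuronosyltransferases (UGT), the glutathione S-transferases (GST) and the cytosolic sulfotransferases (SULT). The members were the genes of the UGT1, UGT2 and UGT5 families, of the alpha, kappa, mu, omega, theta, zeta and rho classes of GST and of SULT families 1 to 6 that had a transcript cluster (a set of array probes for a single transcript unit) carrying only their own symbol. The pi class of GST was left out. This gave 39 of 19260 genes, namely 13 UGT, 12 GST and 14 SULT genes, and where a gene had several such transcript clusters the brightest stood for it. No UGT1 gene had a transcript cluster of its own.

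RNA of whole zebrafish larvae of the line Tg (mbp:nfsB-egfp) was measured at 10 dpf (days post fertilization) on 6 Affymetrix arrays. The replicate numbers 1 to 3, taken to mark batches of larvae, each held a metronidazole-treated and a control sample. The metronidazole-treated larvae were kept in 5 mM metronidazole and 0.2% DMSO in E3 medium from 5 dpf for 5 days (n = 3), and the control larvae of the same line in 0.2% DMSO in E3 medium (n = 3). All larvae carried the transgene, in which the mbp promoter drives a bacterial nitroreductase and GFP in the cells that form myelin, and each sample was the pooled RNA of 5 larvae. Larvae without the transgene were not among these arrays, so an effect of ablated cells and an effect of the drug on other tissues cannot be told apart.

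Conjugation is the second stage of the breakdown of drugs, hormones and waste products. UGT enzymes join glucuronic acid or another sugar from a UDP-sugar to the substrate, GST enzymes join the sulfur of glutathione to reactive molecules, and SULT enzymes transfer a sulfate group from the donor PAPS. The products are more soluble in water and leave the cell through transporters. In vertebrates these enzymes are found mainly in liver, gut and kidney. In people metronidazole itself is oxidized and is partly excreted as a glucuronide.

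The arrays had median log2 signals between 5.10 and 5.14. The genes of myelin basic protein differed by less than the spread between arrays: mbpa was at 8.55 ± 0.24 in metronidazole-treated and 8.69 ± 0.08 in control larvae and mbpb at 8.71 ± 0.11 in metronidazole-treated and 8.68 ± 0.05 in control larvae (SD, n = 3 each). Of 4 measured myelin markers, 2 had a lower mean in metronidazole-treated larvae, and the median log2 difference, metronidazole minus control, was -0.05. Besides mbpa and mbpb these were cldnk (-0.35, standard error 0.31) and mag (0.29, standard error 0.13). In mag all metronidazole arrays lay above the control arrays, as for 5.14% of all genes. The gene ugt8, whose product in mammals makes the galactolipids of myelin and which lies outside the families above, was at 6.50 ± 0.12 in metronidazole-treated and 6.76 ± 0.31 in control larvae. Because whole larvae were used, fewer cells of a type and less RNA per cell cannot be told apart.

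Most conjugation enzyme genes had lower signals in metronidazole-treated than in control larvae, but none passed the test across all transcript clusters. Of the 39 members, 32 (82.1%) had a negative difference (metronidazole minus control on the log2 scale), where 46.5% of all genes did. The median difference was -0.38 over the members and 0.02 over all genes. The fold was taken as 2 to the power of the difference of mean log2 signals. For 5 members (12.8%) it was at most 0.5, against 2.02% of all genes, and for 0 it was 2 or more, against 0.218%. All 3 metronidazole arrays lay below all 3 control arrays for 7 members (17.9%), against 5.73% of all genes, and above them for 1 (2.56%), against 5.14%.

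By limma's moderated test with Benjamini-Hochberg adjustment over 75212 transcript clusters, 0 members and 0 transcript clusters in all (0%) passed 0.05, and the lowest adjusted p of a member was 0.952. Without adjustment, 4 members (10.3%) were lower at 0.05, where 4.27% of all genes were, and 1 was higher, where 1.68% were. With the replicate number as a block, arrays of the same number were paired. Then 11 members (28.2%) were lower at an unadjusted 0.05, against 6.90% of all genes. In that fit 0 were higher, against 2.38%, while the lowest limma adjusted p was 0.479. Each array was then left out in turn. The unpaired count of 4 became 11 without the first control array (7.91% of all genes) and without the second metronidazole array (4.95%). It became 2 without the third control array (2.54%) and 0 without the second control array (2.13%). Without the first metronidazole array it was 5 (3.00%), and without the third metronidazole array it was 4 (3.34%). The difference was negative within each of the 3 replicate numbers for 19 members (48.7%), against 15.8% of all genes, and positive within each for 3, against 15.8%. For a single gene, complete separation of 3 arrays from 3 gives p = 0.1 in a two-sided exact permutation test, the smallest p of the unpaired comparison. With the arrays paired by replicate number the smallest such p is larger.

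**Figure D1:**
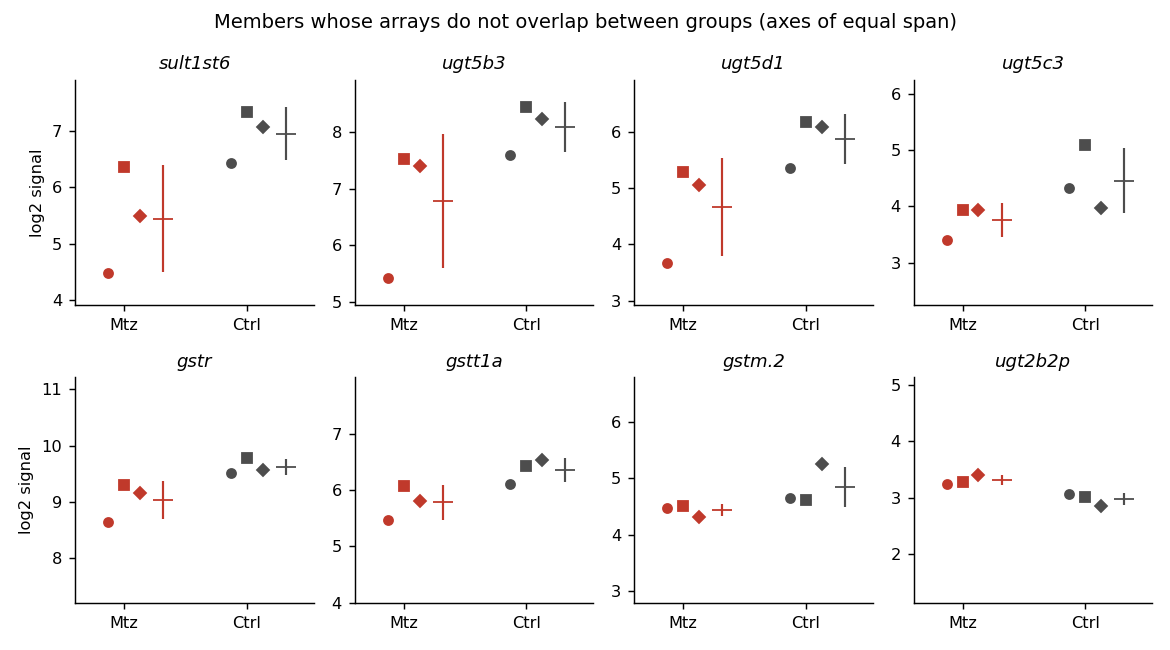
Log2 signal of the 8 conjugation enzyme genes whose arrays did not overlap between metronidazole-treated (Mtz, red, left) and control larvae (Ctrl, grey, right); circles, squares and diamonds are replicate numbers 1, 2 and 3, the bars give the mean and SD (n = 3), and every vertical axis spans 4 log2 units. The first 7 genes were lower in metronidazole-treated larvae and ugt2b2p was higher, and the circle is the lowest metronidazole array in 6 of the 7.

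Among the UGT genes, 11 of 13 had a negative difference, with a median of -0.34. The UGT5 family, known from fish and without a member in mammals, made up 10 of the 13, and 9 of these 10 were negative. The largest difference was in ugt5b3, whose log2 signals were 5.41, 7.52 and 7.41 in the metronidazole arrays of replicates 1, 2 and 3, against 7.61, 8.46 and 8.24 in the control arrays. The groups did not overlap, though by only 0.08, and the first metronidazole array was far below the rest. The difference was -1.32 (standard error 0.58), or 0.400 of the control level (limma adjusted p = 0.952).

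The gene ugt5d1 had the same order of arrays, with 3.67, 5.28 and 5.05 in metronidazole-treated and 5.36, 6.17 and 6.08 in control larvae. Its difference was -1.21 (standard error 0.45), with -1.69, -0.89 and -1.04 within the replicate numbers, each of them negative. The gene ugt5c3 was at 3.41, 3.93 and 3.94 in metronidazole-treated larvae and at 4.32, 5.09 and 3.97 in control larvae. Here the groups were parted by 0.02 only, and the third replicate number hardly differed (-0.02). Its neighbours in the annotation, ugt5c1 and ugt5c2, had differences of -0.34 (standard error 0.30) and 0.03 (standard error 0.16), both at signals below 3.5 in every array, in the range below the first quartile of mean signals over all transcript clusters (3.49).

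The other UGT5 genes were within the spread of their arrays. The gene ugt5g1 was at 4.72, 5.11 and 4.91 in metronidazole-treated larvae, against 4.66, 5.75 and 5.75 in control larvae, where the first control array was as low as the treated ones (-0.47, standard error 0.32). The gene ugt5f1 went the other way in the first replicate number, with 0.60, -0.68 and -0.93 within the numbers. Differences of -0.38, -0.27 and -0.08 were found for ugt5e1, ugt5a5 and ugt5g2.

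UGT2 enzymes conjugate steroids and bile acids in mammals. Of the 3 members of this family 2 had a negative difference, with a median of -0.22. The gene ugt2a5 was at 6.54, 7.11 and 7.49 in metronidazole-treated and at 7.31, 7.19 and 7.52 in control larvae, a difference of -0.29 (standard error 0.25). The gene ugt2b1 was the most uneven UGT gene between replicate numbers, with -2.13, 1.39 and 0.07 within them. Its difference was 0.36 without the first control array and 0.15 without the first metronidazole array. Its other transcript cluster, dimmer and not used here, gave a difference of -1.01 against -0.22 for the brighter one. The single member that was higher at an unadjusted 0.05 was ugt2b2p, named as a pseudogene, with 3.25, 3.27 and 3.40 in metronidazole-treated and 3.06, 3.01 and 2.86 in control larvae. All of these values lie below that quartile too.

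Transcript clusters that the platform gives to several genes of a family were not members, since probes of near-identical copies cannot be assigned to a gene. This took in 2 transcript clusters that carry the symbol ugt2b6 for 2 gene identifiers, with differences of 0.02 (standard error 0.14) and -0.35 (standard error 0.24), so that ugt2b6 was left out although no other symbol stands there. In all there were 13, 11 with a negative difference and a median of -0.39, and 9 belonged to the UGT families. A transcript cluster shared by 7 symbols of the UGT1 family, which conjugates bilirubin and phenols in mammals, was at 4.37, 7.58 and 7.50 in metronidazole-treated larvae, against 7.30, 8.32 and 8.25 in control larvae. The groups overlapped, and the difference of -1.48 (standard error 0.86) rested largely on the first metronidazole array. In contrast, a transcript cluster shared by 4 symbols of the UGT2 family was even, with 4.65, 5.13 and 5.10 in metronidazole-treated and 5.60, 6.03 and 5.84 in control larvae. It was the only shared one without overlap (-0.86, standard error 0.19, limma adjusted p = 0.952). Probes of the members may also bind copies of their own family, which was not tested.

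Among the GST genes, 10 of 12 had a negative difference, with a median of -0.42. Of 9 other glutathione transferases, which were not members, 5 were negative, with a median of -0.09. The pi class gene gstp1.2 among them had 0.71 (standard error 0.47). The gene gstr encodes the rho class enzyme, found in fish and other aquatic animals. It was at 8.65, 9.30 and 9.16 in metronidazole-treated and at 9.51, 9.78 and 9.57 in control larvae. The groups were parted by 0.21, the widest gap among the members, and the difference was -0.58 (standard error 0.20), or 0.667 of the control level (limma adjusted p = 0.952).

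Theta class enzymes act on small halogenated compounds in mammals, and both theta genes were lower. The gene gstt1a was at 5.46, 6.06 and 5.81 in metronidazole-treated and at 6.11, 6.43 and 6.53 in control larvae (-0.58, standard error 0.20). The gene gstt1b was at 4.40, 5.86 and 5.86 in metronidazole-treated and at 5.41, 6.90 and 6.91 in control larvae. Both arrays of the first replicate number were low, so that the groups overlapped, while the differences within the numbers were nearly equal at -1.01, -1.03 and -1.05. The standard error of its difference of -1.03 was 0.55 in the unpaired test and 0.13 with the block, where its adjusted p over all transcript clusters was 0.479.

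The 3 mu class genes, which encode cytosolic enzymes for epoxides and other electrophiles and lie next to each other in the annotation, were all lower. The gene gstm.2 was at 4.48, 4.51 and 4.32 in metronidazole-treated and at 4.66, 4.63 and 5.26 in control larvae (-0.41, standard error 0.20), without overlap. The gene gstm.3 was at 5.05, 5.44 and 4.46, against 5.16, 5.71 and 6.17 in control larvae (-0.69, standard error 0.34). The third replicate number carried most of the difference in gstm.2 (-0.95) and gstm.3 (-1.71), while gstm.1 (-0.59, standard error 0.38) differed by -0.28, -0.73 and -0.75.

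In the remaining GST genes the groups overlapped. The omega genes gsto1 and gsto2, which encode enzymes that reduce dehydroascorbate and are adjacent, had differences of -0.42 (standard error 0.27) and -0.29 (standard error 0.26). The gene gsta.1 of the alpha class had -0.40 (standard error 0.40), and 0.0056 without the first metronidazole array. The gene gstz1, which encodes an enzyme of tyrosine breakdown, was at 6.38, 7.43 and 7.42 in metronidazole-treated larvae and at 7.28, 7.18 and 7.12 in control larvae, so that the first metronidazole array alone was low. The kappa genes gstk2 and gstk4, whose products lie in mitochondria and peroxisomes in mammals, were the only GST members with a positive difference, 0.05 and 0.18, at signals below 3.5. Shared transcript clusters, which were not members, had the opposite sign for 2 of these genes. The brighter one shared by gstk1 and gstk4 gave -0.11 (standard error 0.15). The one shared by gsta.2 and gsta.1 gave 0.35 (standard error 0.21).

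**Figure D2:**
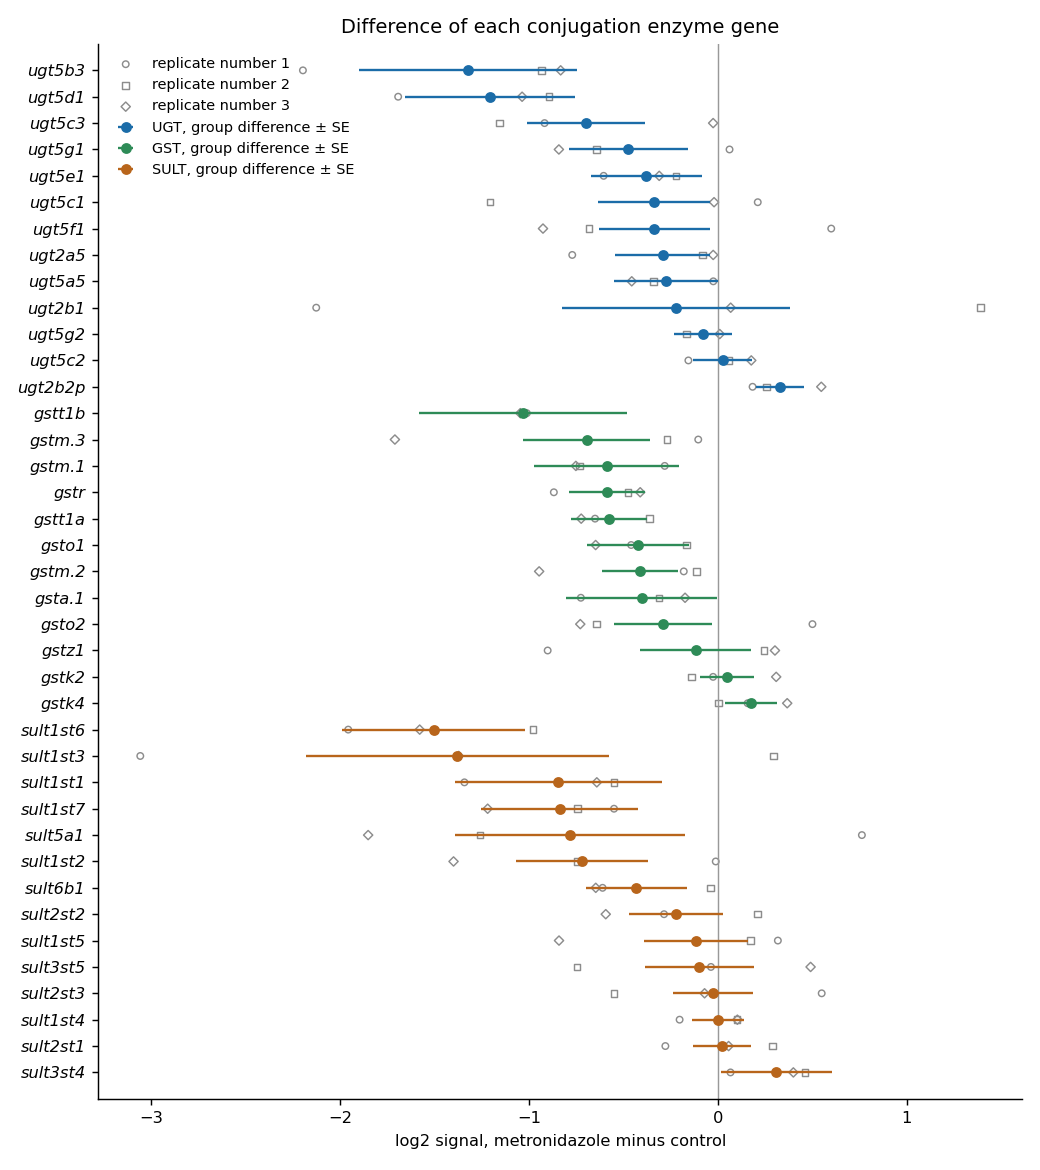
Difference of log2 signal, metronidazole minus control, for the 39 conjugation enzyme genes by family, with the limma standard error as bars; small open symbols give the difference within each replicate number. Of the 39 points, 32 lie left of 0, and sult1st6, sult1st3 and ugt5b3 lie farthest left.

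The SULT families had unlike medians. SULT1 enzymes sulfate phenols, estrogens and thyroid hormones in mammals, and 6 of 7 SULT1 genes had a negative difference, with a median of -0.84. The 3 SULT2 genes, whose mammalian counterparts act on hydroxysteroids, had a median of -0.02, and the 2 SULT3 genes had -0.10 and 0.31. The SULT2 median depends on the transcript cluster chosen for sult2st1, which gave 0.02 for the brighter one and -0.55 for the other. The single SULT5 and SULT6 genes had -0.78 and -0.43. No test of the difference between these families was made, and their members are few.

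The gene sult1st6 had the largest difference of all members. Its signals were 4.47, 6.37 and 5.50 in metronidazole-treated larvae, against 6.43, 7.34 and 7.07 in control larvae. The groups did not overlap, with a gap of 0.06, and each replicate number was lower (-1.96, -0.98 and -1.58). The difference was -1.50 (standard error 0.49), or 0.353 of the control level (limma adjusted p = 0.952, and 0.479 with the block).

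The genes sult1st7, sult1st1, sult1st2 and sult1st3 follow each other within a few genes in the annotation, and all were lower in metronidazole-treated larvae. The gene sult1st1 was at 5.24, 6.87 and 7.15, against 6.58, 7.42 and 7.79 in control larvae (-0.84, standard error 0.55). The gene sult1st7 was at 3.17, 3.81 and 4.04, against 3.71, 4.55 and 5.26 (-0.84, standard error 0.42), and sult1st2 had -0.72 (standard error 0.35). In these genes the arrays overlapped, since the first control array was the lowest of its group. The gene sult1st3 was at 3.40, 6.92 and 5.53 in metronidazole-treated larvae and at 6.46, 6.62 and 6.90 in control larvae. This was the widest range among the metronidazole arrays of any member (SD 1.77), and the second replicate number was higher by 0.30.

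The genes sult1st4 and sult1st5, which do not lie beside these genes, had differences of 0.00 (standard error 0.14) and -0.12 (standard error 0.28). The gene sult1st6, with -1.50, does not lie beside them either. The gene sult2st1 was at 6.66, 7.01 and 6.71 in metronidazole-treated larvae, against 6.94, 6.72 and 6.66 in control larvae (0.02, standard error 0.16). Its other transcript cluster, which is dimmer, gave -0.55. The genes sult2st2 and sult2st3 had -0.22 and -0.02. The gene sult3st4 had the largest positive difference of a SULT gene, at 4.47, 4.11 and 3.82 in metronidazole-treated and 4.40, 3.64 and 3.42 in control larvae (0.31, standard error 0.30), and its neighbour sult3st5 had -0.10.

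Of the remaining SULT genes, sult6b1 was at 8.54, 9.49 and 9.02 in metronidazole-treated larvae and at 9.15, 9.53 and 9.66 in control larvae (-0.43, standard error 0.27). The gene sult5a1 varied most between control arrays of the SULT genes (SD 0.83), with differences of 0.76, -1.26 and -1.85 within the replicate numbers. For neither were the groups apart.

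The arrays did not contribute evenly. The first metronidazole array was the lowest of the 6 for 20 members (51.3%), where it was the lowest for 25.3% of all genes. The highest value was in the third control array for 16 members and in the second for 9. After centring each gene on its mean, the median over the GST genes was -0.62, -0.02 and -0.10 in the metronidazole arrays, against -0.18, 0.37 and 0.43 in the control arrays, so that the first control array lay below the other two metronidazole arrays. For UGT these medians were -0.43, -0.08 and -0.08 in metronidazole-treated and 0.09, 0.18 and 0.32 in control larvae, without overlap. For SULT they were -0.31, 0.10 and -0.17, against -0.08, 0.32 and 0.50 in control larvae, with overlap. Without the first metronidazole array, the medians of the differences were -0.14 for UGT, -0.37 for GST and -0.17 for SULT, and 28 of 39 members were negative. Without the first control array they were -0.53, -0.63 and -0.46, and 32 of 39 members were negative.

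Brighter members differed more. Of the 20 members with a mean signal above the median of all transcript clusters, 19 were negative, with a median of -0.53, and of the 19 dimmer members 13 were negative, with a median of -0.22. Over all genes the median was 0.03 above that level and -0.01 at or below it.

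Most markers of gut, liver, kidney tubule and exocrine pancreas had a negative difference on the same arrays, where 46.5% of all genes did. For liver and kidney the summed signals of the groups overlapped. Of the 14 measured markers of enterocytes, the absorptive cells of the gut, 14 had a negative difference, with a median of -1.25. Their summed linear signal was 2594 to 6808 in metronidazole-treated and 8426 to 11586 in control larvae. The peptidase gene anpepb.1 was at 8.66, 10.69 and 9.80 in metronidazole-treated and at 10.98, 11.65 and 11.31 in control larvae. Of 13 markers of hepatocytes, 12 were negative, with a median of -0.55, and the sums were 2553 to 4808 in metronidazole-treated and 3336 to 7677 in control larvae. All 9 markers of kidney tubules were negative, with a median of -0.38 (sums of 863 to 1852 in metronidazole-treated larvae against 1759 to 2288 in control larvae). All 14 markers of exocrine pancreas were negative as well, with a median of -0.58 (sums of 46630 to 57624 in metronidazole-treated larvae against 69621 to 70150 in control larvae). Of the 7 neuronal markers 3 were negative, with a median of 0.10 (sums of 5773 to 6540 in metronidazole-treated and 5544 to 6379 in control larvae). At an unadjusted 0.05, where 4.27% of all genes were lower, 8 enterocyte, 2 hepatocyte, 2 kidney, 9 pancreas and 0 neuronal markers were lower. These lists, and the pathway lists below, were chosen with earlier results of these data known. Their counts are therefore descriptions and not independent support. For the 39 conjugation enzyme genes the sums were 1888 to 3217 in metronidazole-treated and 3121 to 4038 in control larvae. No marker was at 0, as array signals do not reach it, and the part that these tissues have in the differences of the conjugation enzymes was not tested.

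**Figure D3:**
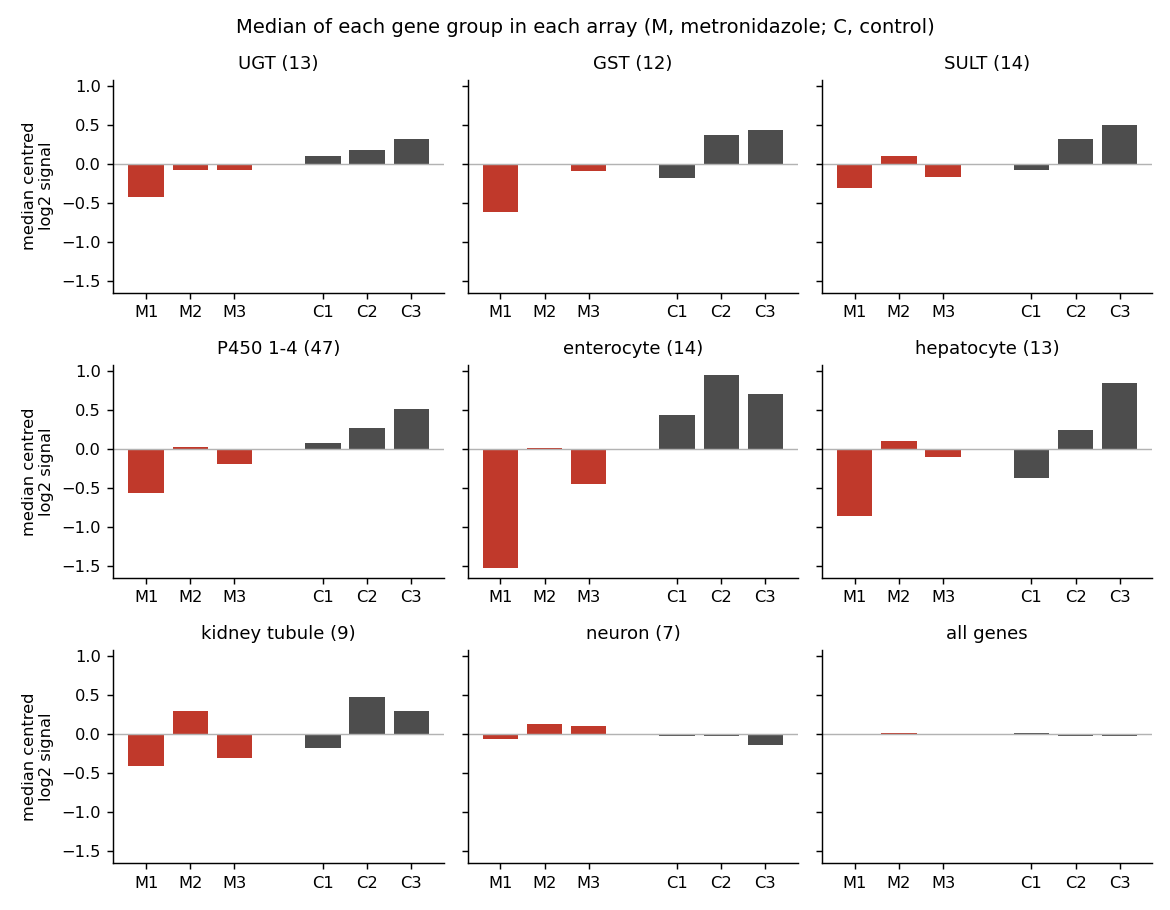
Median over the genes of a group of the log2 signal, each gene centred on its mean over the 6 arrays, for metronidazole (M1 to M3, red, left) and control arrays (C1 to C3, grey, right); the number of genes is in parentheses. The first metronidazole array has the lowest median in the UGT, GST, SULT, P450, enterocyte, hepatocyte and kidney groups, while the medians of neuronal markers and of all genes stay close to 0. Exocrine pancreas is not drawn. Its medians were -0.36, -0.04 and -0.40 in the metronidazole arrays, lowest in the third.

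Cytochrome P450 enzymes of families 1 to 4 oxidize many of the same substrates before conjugation. Of 47 such genes, 39 (83.0%) had a negative difference, with a median of -0.51. At an unadjusted 0.05, 13 (27.7%) were lower, against 4.27% of all genes. The conjugation enzymes thus had a similar share of negative differences (82.1%) and a smaller share at that p (10.3%), and the difference between the groups of genes was not tested.

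Next came the lists named for the supply of the donors of the reactions. For UDP-glucuronate, 5 of 6 genes were negative, with a median of -0.45. At an unadjusted 0.05, 0 were lower, against 4.27% of all genes. Among them ugp2b, which encodes an enzyme that makes UDP-glucose, was at 7.10, 7.52 and 7.45 in metronidazole-treated and at 7.71, 7.83 and 7.64 in control larvae (-0.37, standard error 0.16). The gene slc35d1b, a UDP-sugar transporter, had -0.47 (standard error 0.24), and ugdh, whose product oxidizes UDP-glucose to UDP-glucuronate, had -0.70 (standard error 0.37).

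For sulfate and PAPS, 8 of 10 genes were negative, with a median of -0.26. The list also held genes outside sulfate uptake and PAPS synthesis, such as bpnt1, bpnt2, slc35b2 and slc35b3, so the median does not measure supply alone. At an unadjusted 0.05, 3 (30.0%) were lower, against 4.27% of all genes. The sulfate importer gene slc13a1 was at 6.47, 7.21 and 6.60 in metronidazole-treated larvae, against 8.38, 8.29 and 8.31 in control larvae, a gap of 1.08 (-1.56, standard error 0.21, limma adjusted p = 0.868). The sulfate transporter gene slc26a1, which is also among the kidney markers, was at 5.40, 6.14 and 5.40, against 6.46, 7.08 and 6.64 in control larvae (-1.08, standard error 0.26). The gene papss2a encodes a PAPS synthase and was at 6.64, 7.83 and 7.01 in metronidazole-treated and at 8.23, 8.54 and 8.44 in control larvae (-1.24, standard error 0.30). These 3 genes had no overlap between the groups. The other 2 PAPS synthase genes overlapped, with differences of 0.03 (standard error 0.17) for papss1 and -0.19 (standard error 0.32) for papss2b.

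The list of 16 genes named glutathione supply also held genes for the breakdown of glutathione or its conjugates, such as ggt1a, chac1 and dpep1. In this list 12 had a positive difference, with a median of 0.20, which does not measure supply alone. At an unadjusted 0.05, 1 was higher, where 1.68% of all genes were, and 1 (6.25%) was lower, where 4.27% were. The positive direction rested on the first replicate number, as the medians within the numbers were 0.45, 0.008 and -0.065. The contrast with the GST genes was not tested. The gene gsr, which encodes glutathione reductase, was at 7.93, 7.95 and 7.43 in metronidazole-treated and at 6.98, 7.02 and 6.91 in control larvae (0.80, standard error 0.18, limma adjusted p = 0.952). The enzymes of glutathione synthesis, gclc, gclm and gss, had differences of 0.33 (standard error 0.19), 0.58 (0.24) and 0.46 (0.23). In gclm the signals were 7.51, 7.27 and 6.62 in metronidazole-treated larvae, against 6.39, 6.69 and 6.57 in control larvae, so that the third replicate number hardly differed. The lowest gene of this list was dpep1, which encodes a dipeptidase that takes apart glutathione conjugates, at 5.08, 7.05 and 5.94 in metronidazole-treated and 7.16, 7.66 and 7.10 in control larvae (-1.29, standard error 0.47).

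Other glutathione transferases had no common direction, with 5 of 9 negative and a median of -0.09. The pi class gene gstp1.2 was at 9.71, 10.96 and 9.59 in metronidazole-treated larvae, against 8.60, 9.62 and 9.90 in control larvae (0.71, standard error 0.47), and the groups overlapped. The membrane enzyme gene mgst3a had -0.57 (standard error 0.32). Of 8 genes for methyl and other transfers, 4 were negative, with a median of -0.09, among them as3mt (-0.35, standard error 0.17), and tpmt.2 had 0.36 (standard error 0.19).

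Of 14 genes for transporters of conjugates and organic anions, 9 were negative (median -0.11). At an unadjusted 0.05, 3 (21.4%) were lower, where 4.27% of all genes were, and 1 was higher, where 1.68% were. The efflux pump gene abcg2a was at 8.56, 9.89 and 8.93 in metronidazole-treated and at 10.20, 10.56 and 10.24 in control larvae (-1.21, standard error 0.34). The gene abcg2b had -1.90 (standard error 0.38), while abcg2c had -0.11 (standard error 0.16) and abcg2d 0.06 (standard error 0.18). The transporter gene that was higher was slco1c1 (0.56, standard error 0.18). Of 13 genes for the removal of sulfate or glucuronic acid, 9 were negative, with a median of -0.11. At that p 2 (15.4%) were lower, against 4.27% of all genes. These were the sulfatase genes arsh (-0.47, standard error 0.18) and ids (-0.48, standard error 0.19).

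Of 16 genes for regulators of these enzymes 10 were negative (median -0.09). At an unadjusted 0.05, 1 (6.25%) was lower, where 4.27% of all genes were, and 1 was higher, where 1.68% were. The gene hnf4a, a transcription factor of liver and gut, was at 5.43, 6.59 and 6.46 in metronidazole-treated and at 7.36, 6.95 and 6.82 in control larvae (-0.88, standard error 0.33). The gene keap1b, which encodes an inhibitor of the oxidative stress factor Nrf2, was at 7.83, 7.43 and 7.27, against 7.19, 6.58 and 6.61 in control larvae (0.71, standard error 0.23). In a single list of target genes of the receptor AhR and of Nrf2, 5 of 9 were negative (median -0.07). These 9 included prdx1 for a peroxidase, which was higher at 1.58 (standard error 0.38), and foxq1a at -1.03 (standard error 0.49). Within the replicate numbers prdx1 differed by 2.15, 2.20 and 0.38. Also in the list were nqo1 (-0.41, standard error 0.26), txnrd3 (-0.14, standard error 0.27) and hmox1a (-0.07, standard error 0.25). Positive differences were found for srxn1 (0.07, standard error 0.19) and sqstm1 (0.36, standard error 0.45). The targets of AhR and of Nrf2 were not counted apart. The genes gsr, gclc, gclm and gstp1.2, with positive differences, were counted in other lists above. A common direction of Nrf2 targets was therefore not tested. None of the genes in these lists passed the adjusted p of limma.

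**Figure D4:**
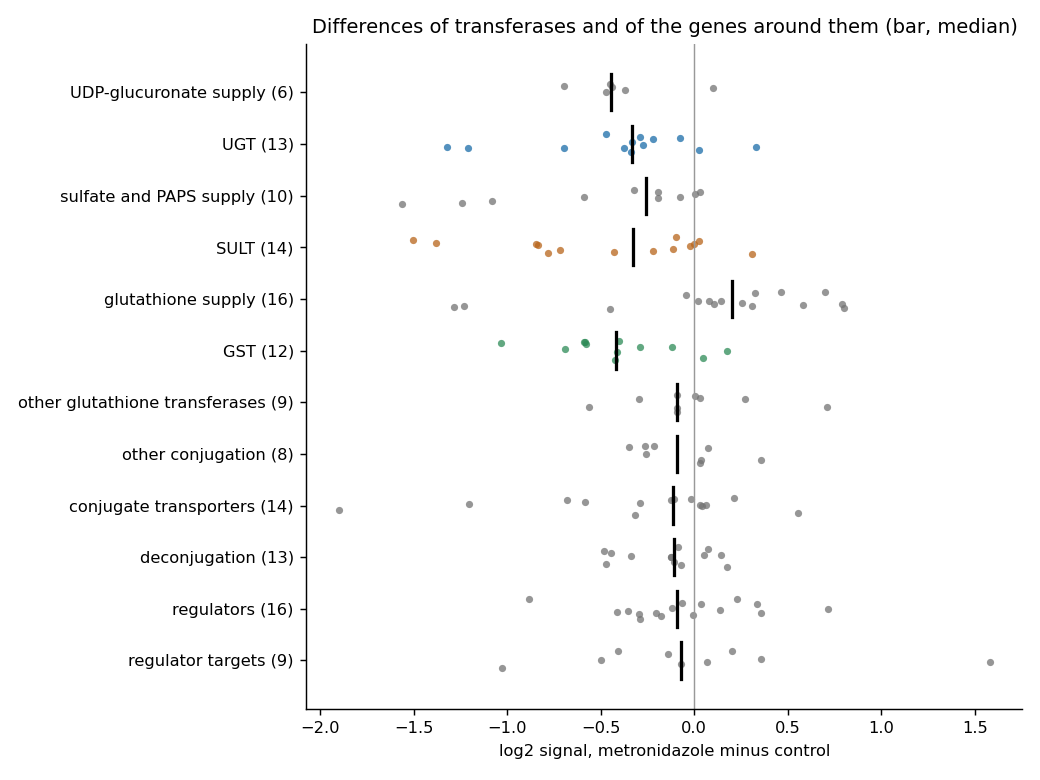
Difference of log2 signal, metronidazole minus control, for each gene of the UGT, SULT and GST families (coloured) and of the lists of genes around them (grey), with the number of genes in parentheses and the median as a black bar. The medians of UGT, SULT and GST lie at -0.34, -0.33 and -0.42, that of glutathione supply at 0.20, which rested on the first replicate number. The glutathione supply list also holds genes for the breakdown of glutathione or its conjugates. The list for sulfate and PAPS also holds genes outside uptake and synthesis.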

How the data were processed

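Total RNA was amplified and hybridized to Affymetrix GeneChip Zebrafish Gene ST arrays by the authors. The authors deposited a log2 signal for each of 75212 transcript clusters on each array, already on nearly the same scale. The submitters' processing notes name MAS5 without a role, and the background correction and normalization are not given in the sources used here. The precision is limited by the number of arrays, and no detection values were used here.

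Symbols came from the platform's table, with a single symbol for 20806 transcript clusters, several for 855 and none for 53551. All 39 members matched a current RefSeq gene by Entrez identifier. Their order in the GRCz12tu annotation was used for neighbours only, which were members at most 5 places apart among protein-coding genes. Sequences and coordinates were not used here. Linear signals for sums were 2 to the power of the log2 signal.

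The difference, metronidazole minus control, was tested two-sided with lmFit and eBayes of limma (version 3.58.1, under R version 4.3.3). There were 4 residual and 2.69 prior degrees of freedom. The fit was made on all transcript clusters, and p-values were adjusted over all of them by the Benjamini-Hochberg method, with a threshold of 0.05. Percentages over all genes refer to 19260 genes with 1 transcript cluster each. Values for the families and lists are descriptions without a test. Standard deviations are over 3 arrays, which the labels call biological replicates. The test was tried on simulated data with noise that was independent between arrays. Of 200 transcript clusters changed by 1 log2 unit, 34.5% passed the adjusted 0.05, and of 200 changed by 2 units, 79% passed. There were 26 false calls. Pandas 2.3.3 was used for tables and matplotlib 3.10.9 for plots, under Python 3.11.15.

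The methods state that larvae of 3 batches were used, and the replicate numbers were taken to mark them. Arrays of the same number had correlated deviations from their group means (r = 0.241, 0.148 and 0.127). For arrays of different numbers r was -0.171 to 0.051. The deviations within a group cancel out for each transcript cluster, so these values are tied to each other and are not separate support. Alternatives were quantile normalization, median centring, bright transcript clusters only, the replicate number as a block, each array left out, averaged transcript clusters of a gene, an intensity trend and the methods' t-test. Counting shared transcript clusters as members, counting negative differences under each alternative and running the alternatives on the members and list genes named beside the rule below were added after the data were examined.

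The members and lists were chosen with earlier results of these data known. Named in detail were, in each family, the 5 members with the lowest p, the 2 with the highest mean and the 2 with the largest positive difference, in each list of pathway genes the 2 with the lowest p, in each list of markers the 2 with the highest mean (given here where a result turns on them), and mbpa and ugt8. The other members were named so that each is accounted for, and ugdh, papss1, papss2a, papss2b, gclc, gclm and gss were named after their values were seen. So were nqo1, txnrd3, hmox1a, srxn1, sqstm1, abcg2c, abcg2d and slco1c1, on which the alternatives were not run.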

Additional observations from a re-analysis of the deposited data

How the results depend on the processing

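The number of members past the adjusted p of limma was 0 under every alternative that was run, with a lowest adjusted p of 0.401 to 1.000 when an array was left out, and after Benjamini-Hochberg adjustment the methods' t-test called 0 as well. Quantile normalization, median centring, an intensity trend and averaging the transcript clusters of a gene left the family medians and the counts within 1.5 times of the reported ones. With bright transcript clusters only, which leaves 20 members, 19 were negative. The SULT median was then -0.64 and the GST median -0.58, which turns their order. Of these 20 members 0 were higher at an unadjusted 0.05, against 1.42% of 15546 genes, and 0 without overlap, against 5.23%. With the replicate block, 11 members were lower and 0 higher at an unadjusted 0.05, and 19 were lower and 3 higher within every replicate number. The methods' t-test gave 0 lower and 1 higher (2.56%) at an unadjusted 0.05. By that test 3405 of 75212 transcript clusters were under 0.05 in either direction. With shared transcript clusters counted, the medians were -0.38 for UGT, -0.41 for GST and -0.22 for SULT.

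With an array left out, the UGT median ranged from -0.53 to -0.14, the GST median from -0.65 to -0.32 and the SULT median from -0.46 to -0.17, and 28 to 34 members were negative. Between 0 and 11 members were lower and 0 to 2 higher at an unadjusted 0.05, and 7 to 18 were lower and 1 to 4 higher without overlap (18 lower without control replicate 1, or 46.2% against 16.2% of all genes, 13 lower without metronidazole replicate 2, or 33.3% against 11.4%, and 4 higher without metronidazole replicate 1, or 10.3% against 10.9%). The UGT median was -0.14 without metronidazole replicate 1, -0.22 without control replicate 3 and -0.53 without control replicate 1, the SULT median was -0.17 without metronidazole replicate 1, and the GST median was -0.65 without metronidazole replicate 2 and -0.63 without control replicate 1. Of these counts, 11 lower at that p came without control replicate 1 (7.91% of all genes) and without metronidazole replicate 2 (4.95%), and 0 without control replicate 2 (2.13%). Without metronidazole replicate 1 it was 5 (3.00%), and without control replicate 3 it was 2 (2.54%). The 2 higher came without control replicate 1, or 5.13% against 5.23% of all genes.

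Of the 39 members, 11 turned direction under at least 1 alternative. The gene sult2st1 was at -0.27 with its transcript clusters averaged, and sult1st4 at -0.015 with quantile normalization and -0.011 with median centring. With an array left out, the range was -0.70 to 0.36 for ugt2b1, -0.67 to 0.0056 for gsta.1, -0.29 to 0.23 for gstz1, -0.35 to 0.19 for sult1st5, -0.38 to 0.075 for sult3st5 and -0.18 to 0.15 for sult2st3. It was -0.14 to 0.036 for ugt5g2, -0.083 to 0.108 for sult2st1 (-0.035 without control replicate 3), -0.095 to 0.132 for ugt5c2, -0.046 to 0.113 for gstk2 and -0.052 to 0.106 for sult1st4. Of the 38 other genes run, 6 turned, with ranges of -0.42 to 0.13 for fgg, -0.49 to 0.036 for papss2b, -0.27 to 0.058 for slc4a4a, -0.099 to 0.167 for papss1, -0.080 to 0.049 for prss59.2 and -0.029 to 0.080 for mbpb.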
